A study of Mus musculus with 15 samples.

Results

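The genes described here are 36 mouse genes of the integrated stress response and of amino acid supply, out of 55487 mouse genes in the deposited tables. They were chosen by symbol from a named set: 14 regulators and stress-response genes, 7 enzymes of serine and one-carbon metabolism, 8 other amino acid enzymes and 7 amino acid transporters. Their transcripts were measured by RNA sequencing in E12.5 fetal liver erythroid progenitors of strain 129S6/SvEvTac. The mutated gene, Rpl5, codes for a large-subunit ribosomal protein, and the title of the series names Diamond Blackfan anemia syndrome, in which red cell production fails.

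The labels give 15 libraries in 5 groups of 3. Group 1 of mice had wildtype (WT) and mutant (M) libraries from polyA RNA. Group 2 had wildtype, mutant and low-yield mutant (M-lowyield) libraries from total RNA. A table deposited with group 2 names the genotype of all 6 of its mutant libraries, low-yield ones included, as Rpl5plusSkax23Jus, and the allele of the group 1 mutants is not given in the sources used here. What low-yield refers to is not defined there either, nor is how the progenitors were isolated or whether the replicates came from separate embryos. The p-values therefore measure the spread between these libraries, which may be technical. Both kinds of group 2 mutant were compared with the same 3 wildtype libraries. Because the kind of RNA differed, levels were not compared between the groups of mice.

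The integrated stress response joins several alarms at 1 point. Kinases that sense uncharged tRNA, endoplasmic reticulum stress, heme shortage or viral RNA phosphorylate the translation initiation factor eIF2, which lowers general translation while favouring that of the transcription factor ATF4. ATF4, with partners of the C/EBP family, raises genes that make and import amino acids, and a phosphatase subunit encoded by Ppp1r15a closes the loop by removing the phosphate from eIF2. In red cell precursors the heme-sensing kinase, encoded by Eif2ak1, is the best known of these kinases, and glycine uptake feeds heme synthesis.

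ATF4 dimers bind a composite element whose core was searched here as TGATGNAA (N is any base), on both strands, in the RefSeq promoter windows of GRCm38.p6 that run from 250 bases before to 50 bases after each start. Of the 36 genes, 32 had a window, and 9 of these (28.1%) held a match. Over all genes with a window, 1219 of 27025 (4.51%) held one. The exact form TGATGCAA was in 6 of the 32 (18.8%) and in 1.03% of all genes. The set includes known ATF4 targets such as Asns and Chac1, so its share above that of all genes follows at least in part from the choice of genes. The windows of 6 genes that changed in at least 1 comparison are shown because their transcripts went in both directions although they share the element. Each line gives the bases upstream of the start, 5′ to 3′ on the gene's own strand, with the matched bases in capitals.

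Chac1, chr2:119351013-119351092 (+): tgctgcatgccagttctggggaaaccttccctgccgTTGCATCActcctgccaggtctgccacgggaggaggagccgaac
Asns, chr6:7693210-7693268 (-): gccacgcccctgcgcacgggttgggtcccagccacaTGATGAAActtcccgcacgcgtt
Pck2, chr14:55540127-55540206 (+): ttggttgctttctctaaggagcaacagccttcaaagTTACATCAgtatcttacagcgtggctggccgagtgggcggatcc
Nupr1, chr7:126625537-126625616 (-): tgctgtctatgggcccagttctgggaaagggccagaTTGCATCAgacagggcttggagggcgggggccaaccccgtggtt
Slc7a11, chr3:50443636-50443715 (-): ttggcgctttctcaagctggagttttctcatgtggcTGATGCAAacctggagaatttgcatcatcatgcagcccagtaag
Got1, chr19:43524664-43524743 (-): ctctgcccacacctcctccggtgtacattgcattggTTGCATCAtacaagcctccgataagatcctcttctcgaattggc

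The Slc7a11 window holds the element 2 times, the other copy lying on the opposite strand between 47 and 40 bases before the start. Atf3, Trib3 and Pycr1 also held a match. Called means an adjusted p of at most 0.05 in the edgeR test described below. Over both groups of mice, 5 of the 8 tested genes with a match were called (1 higher, Got1, and 4 lower, Chac1, Asns, Pck2 and Nupr1), against 4 of 23 tested genes that had a window without one (1 higher, 3 lower), where 19.6% of all genes were called. In group 1 the counts were 2 of 8 against 4 of 22 (12.6% of all genes), in the group 2 mutant 3 of 8 against 3 of 23 (6.27%) and in the low-yield mutant 5 of 8 against 3 of 23 (12.54%). A match describes the letters only. Cth, Slc7a5, Aldh1l2 and Slc1a5 were not in the promoter table.

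Library totals were between 48510828 and 58513669 counts in group 1 and between 24954324 and 44827821 in group 2. The 36 genes took 0.34% to 0.448% of them. Rpl5 itself, in scaled CPM (reads of the gene relative to the library's total), was at 656, 668 and 744 in wildtype and at 520, 561 and 570 in mutant libraries of group 1, and at 324, 303 and 374 in wildtype, at 232, 248 and 248 in mutant and at 243, 219 and 278 in low-yield libraries of group 2. Every mutant library was below every wildtype library of its group of mice, with log2 fold changes of -0.32, -0.46 and -0.44. Rpl5 has a processed copy, Gm15500 (chosen after its values were seen), that matches its transcript over 1018 bases at 100% identity and carried more counts in all (470170) than Rpl5 (281450), so the division between them is uncertain. The summed CPM of both was 1660 to 1786 in wildtype against 1210 to 1355 in mutant libraries of group 1, and 1013 to 1151 against 784 to 854 and 723 to 860 in group 2.

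Markers of erythroid maturation, of early progenitors and of other cell types were summed per library. The 16 erythroid maturation genes found in the tables, such as globins and Slc4a1, summed to 8360 to 10300 CPM in wildtype and 5070 to 5240 in mutant libraries of group 1. In group 2 they summed to 11100 to 18900 in wildtype, 7460 to 8850 in mutant and 6540 to 8450 in low-yield libraries. All mutant sums lay below all wildtype sums of the same group of mice. The 13 granulocyte genes, such as Mpo and Elane, summed to 104 to 803 against 248 to 1480 in group 1, which overlap. In group 2 they summed to 14.7 to 30.2 in wildtype, 106 to 209 in mutant and 153 to 311 in low-yield libraries. The 14 hepatocyte genes summed to 37 to 69.6 against 8.44 to 24.4 in group 1 and between 11.9 and 91.9 in group 2, with 7 to 9 of them below a mean of 1 CPM in each group. The 12 early progenitor genes summed to 838 to 1000 CPM in wildtype and 920 to 1070 in mutant libraries of group 1, and to 787 to 968 in wildtype, 939 to 1040 in mutant and 948 to 1140 in low-yield libraries of group 2. These sums overlap, and Hoxa9, Mecom and Hlf were below a mean of 1 CPM throughout. Over both groups 11 of 11 tested genes of this list had a log2 fold change above 0 (median 0.58), as had 49.9% of all genes. Of the 11, 3 were called, all higher (27.3%), against 19.6% of all genes called and 9.8% called higher. Kit, the stem cell factor receptor, was at 149 to 171 CPM in wildtype and 191 to 204 in mutant libraries of group 1, and at 155 to 202 against 226 to 276 and 247 to 275 in group 2, without overlap. The 11 macrophage genes stayed at or under 12.6 CPM in sum, with 2 to 4 of them at 0 in all libraries of a group. The 9 megakaryocyte genes summed to 29.7 to 52.7 in group 1, 40.1 to 48 in group 2 wildtype and mutant and 60.2 to 61 in low-yield mutant libraries. In such mixed RNA, fewer cells of a type and less RNA per cell cannot be told apart. The part of these markers in the results that follow was not tested.

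**Figure D1:**
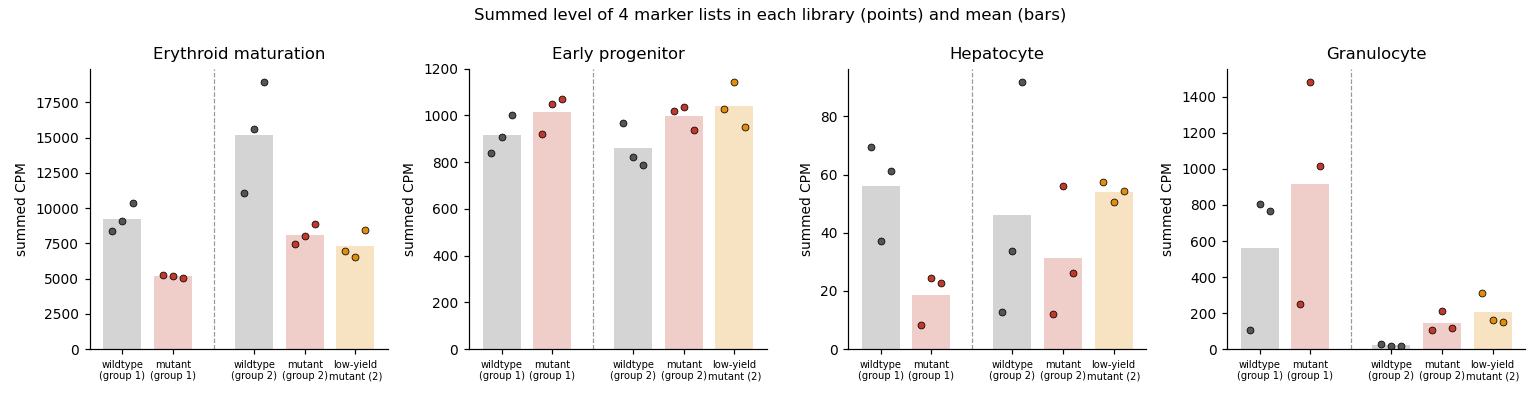
Summed CPM of 4 marker lists (vertical axes, starting at 0) in the 5 groups of libraries, with points for libraries and bars for group means. Erythroid maturation sums are 5070 to 5240 in group 1 mutants against 8360 to 10300 in wildtype, and granulocyte sums in group 2 are 14.7 to 30.2 in wildtype against 106 to 311 in both kinds of mutant.

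Among the 36 genes, more genes were called lower than higher, and the glycine transporter Slc6a9, the glutamine transporter Slc1a5, the phosphatase subunit Ppp1r15a and the glutathione-degrading enzyme Chac1 were lower in each of the mutant groups. Genes were tested with edgeR's quasi-likelihood test and are called at a Benjamini-Hochberg adjusted p of at most 0.05 over all genes tested. Where 3 fold changes follow each other, they are for group 1, for the mutant of group 2 and for its low-yield mutant, in this order. In group 1, 7 of 33 tested genes were called (2 higher, 5 lower; 21.2%), where 12.6% of all 14048 tested genes were called. With the replicate number as a block, which pairs same-numbered libraries of group 1 although no pairing is stated, 9 members and 2863 instead of 1766 of all genes were called. For the mutant of group 2, 7 of 35 were called (1 higher, 6 lower; 20%) against 6.27% of all genes. For the low-yield mutant, 10 of 35 were called (2 higher, 8 lower; 28.6%) against 12.54%. In one fit over the mutant and wildtype libraries of both groups of mice, 11 of 35 were called (2 higher, 9 lower; 31.4%) against 19.6% of all genes. The members were chosen with earlier results of these data known, so these shares only describe the list. The median log2 fold changes of the tested members were -0.08, -0.15, -0.16 and -0.09 in this order, and those of all tested genes 0.008, -0.01, -0.004 and -0.001. Wildtype and mutant libraries did not overlap for 11 of the 33 members in group 1 (4 higher, 7 lower), against 31.6% of all genes. In group 2 they did not overlap for 14 of 35 in the mutant (1 higher, 13 lower; 23.2% of all genes) and for 19 of 35 in the low-yield mutant (4 higher, 15 lower; 29.9%). The counts in single groups of mice rest on few libraries: leaving out 1 library gave 2 to 6 called genes in group 1, 4 to 9 in the group 2 mutant and 5 to 10 in the low-yield one, and 9 to 12 over both groups. The fewest came without wildtype replicate 2 or mutant replicate 3 in group 1 (2 each), without wildtype replicate 3 or mutant replicate 1 or 3 for the mutant of group 2 (4 each), and without wildtype replicate 2 or low-yield replicate 1 or 3 for the low-yield mutant (5 each).

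The low-yield mutant was also compared directly with the other mutant of group 2. By edgeR's test 0 of 35 members and 0% of all genes were called. DESeq2 and limma also called 0 members, with 6 and 4 of all genes. An unadjusted p under 0.05 was reached by 480 of all genes and by 2 members, Nupr1 (log2 difference 0.99) and Ddit4 (-0.73). The effect of genotype was not shown to differ between the groups of mice for any member. By edgeR's test of the interaction, 0 of 35 were called against 0.0188% of all genes, by DESeq2 and limma 0 as well, and 1 member, Slc7a11, had an unadjusted p under 0.05 (difference -1.85, SE 0.75, adjusted p 1), as had 342 of all genes.

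**Figure D2:**
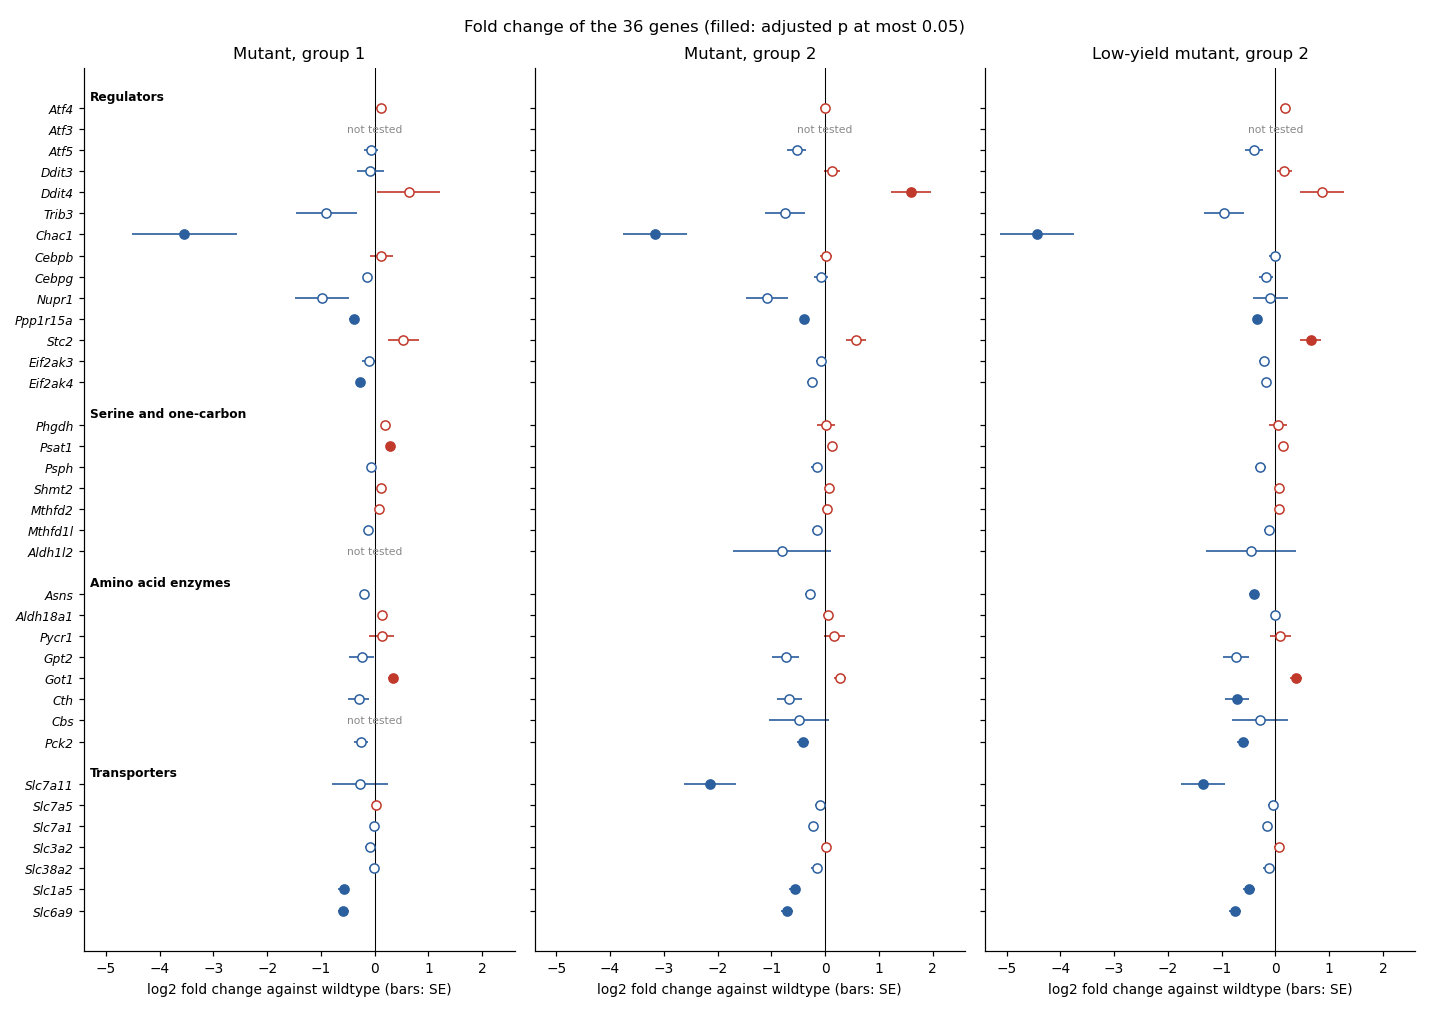
Log2 fold change against wildtype (horizontal axis, bars are SE) of the 36 genes by role in the 3 mutant groups, with filled points for an adjusted p of at most 0.05 and blue for values below 0. Slc1a5, Slc6a9, Ppp1r15a and Chac1 are filled and below 0 in each panel, while Atf4 lies near 0 in each.

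Levels differed widely between members, compared per kilobase of exon in wildtype libraries. In group 1 the mean CPM per kb was highest for Asns (147), Shmt2 (137) and Atf4 (110), followed by Phgdh (85.2) and Slc7a5 (81). In group 2 it was 208 for Shmt2, 138 for Slc7a5, 130 for Asns and 108 for both Atf4 and Phgdh. At the other end, Chac1 was at 0.522 and 1.37, Slc7a11 at 0.0997 and 0.191 and Cbs at 0.014 and 0.0959 CPM per kb in groups 1 and 2. Among the genes of lowest level, Atf3 had at most 0.178 CPM in any library and Aldh1l2 at most 0.347. Atf3 was not tested, and Aldh1l2 and Cbs were tested in group 2 and over both groups only.

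**Figure D3:**
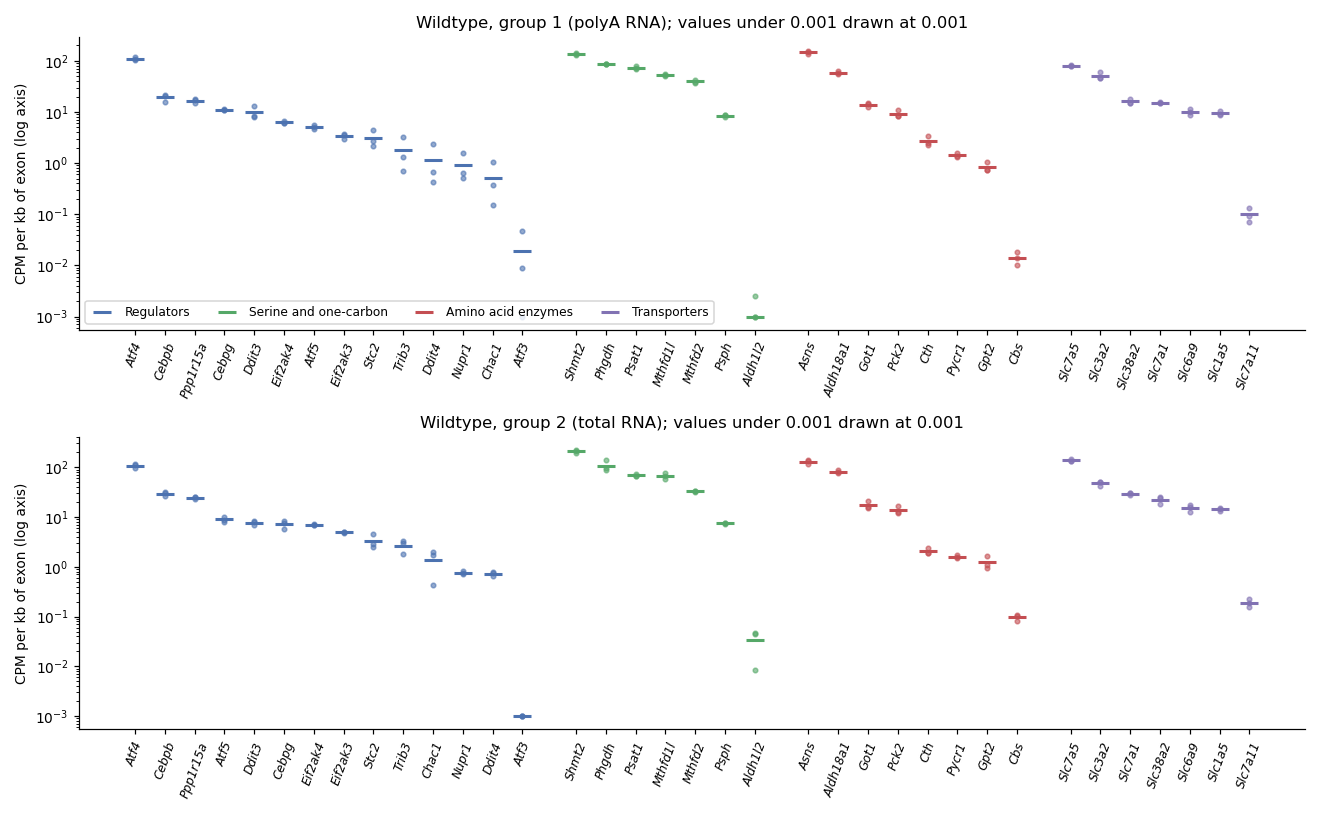
CPM per kb of exon on a log axis for the 36 genes in wildtype libraries (points) and their mean (dashes), by role, with values under 0.001 drawn at 0.001. The means of Asns, Shmt2 and Atf4 are above 100 in both groups of mice, whereas those of Cbs, Atf3 and Aldh1l2 are below 0.1.

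Among the regulators, the RNA of the central factor was not called in any comparison. Atf4 was at 256, 248 and 274 CPM in wildtype and 305, 246 and 289 in mutant libraries of group 1. In group 2 the levels were at 230, 278 and 256 in wildtype, at 290, 229 and 249 in mutant and at 299, 286 and 279 in low-yield libraries. Only the low-yield mutant libraries all lay above wildtype. The log2 fold changes were 0.11 (95% interval -0.06 to 0.29), 0.01 (-0.20 to 0.21) and 0.18 (-0.03 to 0.38), with edgeR adjusted p of 0.41, 0.983 and 0.26. The ATF4 protein, which the response controls mainly through translation, was not measured. Its dimer partners Cebpb and Cebpg, its relative Atf5 and the pro-apoptotic factor Ddit3 (CHOP) were not called in any comparison by edgeR. Cebpb ranged from 23.7 to 49.6 CPM, Cebpg from 31.8 to 63.7 and Ddit3 from 11.5 to 22.4 over all libraries. For Atf5, the log2 fold changes were -0.07 in group 1, -0.53 in the group 2 mutant and -0.40 in the low-yield one, with adjusted p of 0.776, 0.0825 and 0.135. Limma called Atf5 in both kinds of group 2 mutant (0.00647 and 0.0468) and over both groups of mice (0.0467). By edgeR it was called in the mutant of group 2 without its replicate 2 (16.6 CPM against 10.8 and 10.3; adjusted p 0.0132) or without wildtype replicate 1 (0.0496). Exons of Cebpb and Ddit3 overlap those of genes on the opposite strand (Tmem189 and Mars), and the use of strand in counting is not given in the sources used here. Exons of Ddit3 also overlap another entry of the same symbol on the same strand over 105 bases. The 36 symbols had 37 rows in the deposited tables. Where a symbol had several rows, only the one with the larger total count was used.

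Of the kinases upstream of eIF2, Eif2ak4 and Eif2ak1 were lower over both groups of mice. Eif2ak4 (GCN2), which senses uncharged tRNA, was at 46.1, 48.6 and 46.2 CPM in wildtype and 42.2, 38 and 37 in mutant libraries of group 1. It was at 52.2, 50.4 and 54 in wildtype, at 42.6, 44.4 and 44.8 in mutant and at 48, 46.2 and 45.5 in low-yield libraries of group 2. All mutant libraries were below all wildtype libraries of their group of mice. The log2 fold change was -0.26 over both groups (SE 0.06, edgeR adjusted p 0.00415), -0.27 in group 1 (adjusted p 0.0463), -0.25 in the group 2 mutant (0.0951) and -0.17 in the low-yield one (0.223). The call in group 1 was lost in 5 of 6 fits that left out 1 library (all but mutant replicate 1; adjusted p 0.0834 to 0.201), with DESeq2's size factors in edgeR (0.0521) and without the filter on low counts (0.066). DESeq2 called Eif2ak4 in the group 2 mutant (0.0405). Eif2ak3 (PERK), which senses endoplasmic reticulum stress, was not called, at 17.3 to 22.4 CPM in group 1 and 25.6 to 30.6 in group 2. The heme-regulated kinase Eif2ak1, listed among the other genes of the eIF2 arm, was at 198, 206 and 212 CPM in wildtype and 176, 172 and 180 in mutant libraries of group 1. Its log2 fold change was -0.22 there (adjusted p 0.027) and -0.22 over both groups (SE 0.06, adjusted p 0.0143). The group 1 call was lost without wildtype replicate 1, 2 or 3 or mutant replicate 3 (adjusted p 0.0632 to 0.097). In group 2 Eif2ak1 was not called, with log2 fold changes of -0.22 and -0.23 and adjusted p of 0.197 and 0.139. Without wildtype replicate 1 it was called in both kinds of mutant (0.0274 and 0.0153), and limma called it in the low-yield one (0.0214).

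The eIF2 phosphatase subunit Ppp1r15a (GADD34) fell in every mutant group. It was at 43.2, 50.5 and 53.1 CPM in wildtype and 38.7, 39.4 and 34.2 in mutant libraries of group 1. Its group 2 values were at 68.9, 73 and 72.5 in wildtype, at 54.7, 52.7 and 55.9 in mutant and at 57.4, 59.1 and 53.1 in low-yield libraries. No mutant library reached a wildtype one of its group of mice. Log2 fold changes were -0.39 (SE 0.09, edgeR adjusted p 0.0199), -0.39 (SE 0.08, 0.0109) and -0.34 (SE 0.08, 0.0136), and -0.39 over both groups (SE 0.06, 0.000146), or 0.764 of wildtype. Without wildtype replicate 2 or 3 or mutant replicate 3, the adjusted p in group 1 was 0.0906, 0.0782 and 0.103. In group 2 it was 0.0522 without wildtype replicate 2 and 0.0504 without mutant replicate 1, and for the low-yield mutant 0.0583, 0.0593 and 0.0537 without wildtype replicate 2 or low-yield replicate 1 or 3. The call over both groups held in all 12 fits that left out 1 library. Ppp1r15b (CReP), the constitutive counterpart of the same phosphatase, was lower as well, at 238 to 244 CPM in wildtype and 191 to 202 in mutant libraries of group 1, and 397 to 431 against 328 to 338 and 309 to 334 in group 2. Its log2 fold change was -0.31 over both groups (SE 0.05, adjusted p 9e-05).

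Chac1, an enzyme that cleaves glutathione and a known ATF4 target, had the largest fold change of the tested members in each mutant group but rests on few reads. Its counts were 13, 32 and 99 in wildtype and 0, 8 and 3 in mutant libraries of group 1. In group 2 they were 22, 110 and 128 in wildtype, only 4, 7 and 13 in mutant libraries and 1, 3 and 7 in the low-yield ones. The lowest wildtype library of each group of mice, replicate 1, was above all mutant libraries. The log2 fold changes were -3.54 (SE 0.98, edgeR adjusted p 0.0286), -3.17 (SE 0.59, 0.00394) and -4.43 (SE 0.69, 0.000533), and -3.30 over both groups (SE 0.56, 0.000177). At such counts the fitted size depends on the small count added by the fit. In group 1 the call was lost in 5 of 6 fits that left out 1 library (all but wildtype replicate 1; adjusted p 0.0542 to 0.16) and by limma (0.0997). In group 2 and over both groups it held in every such fit. Chac1 and the erythroid sums were both below wildtype in every mutant library, as were Ppp1r15a and other members, and a link was not tested.

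Of the remaining stress-response genes, Ddit4 (REDD1), an inhibitor of mTORC1, was at 1.36, 1.3 and 1.14 CPM in wildtype, at 1.85, 5.67 and 4.03 in mutant and at 2.01, 2.56 and 2.3 in low-yield libraries of group 2. It rose in the mutant by 1.60 on the log2 scale (SE 0.38, edgeR adjusted p 0.0203), with values of 0.87 in the low-yield mutant (0.184) and 0.63 in group 1 (0.55). In group 1 wildtype replicate 3 (4.14 CPM) lay within the mutant range of 2.39 to 4.27. The group 2 call was lost without wildtype replicate 2 or 3 or mutant replicate 2 or 3 (0.0691 to 0.0867). Without wildtype replicate 3 of group 1, Ddit4 was called in group 1 (0.0289) and over both groups (0.000449, from 0.0963 with it). DESeq2 and limma called it over both groups with all libraries (0.0172 and 0.019).

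Stc2, a secreted glycoprotein induced by stress of the endoplasmic reticulum, was at 23.3, 15 and 13 CPM in wildtype, at 24.1, 30.1 and 22.1 in mutant and at 24.1, 27.2 and 28.7 in low-yield libraries of group 2. Only the low-yield mutant libraries were all above wildtype, by 0.65 on the log2 scale (SE 0.19, edgeR adjusted p 0.0359). That call was lost without wildtype replicate 2 or 3 or any of the low-yield replicates (0.0623 to 0.139). The log2 fold change was 0.58 in the mutant (0.0914) and 0.53 in group 1 (0.305). Without wildtype replicate 3 of group 1 (23.3 CPM against 14 and 11.2), Stc2 was called in group 1 (0.0101), and without wildtype replicate 1 of group 2 it was called in the mutant (0.00223), as it was there by DESeq2 (0.0406) and limma (0.0156). Over both groups its edgeR adjusted p was 0.0525 with all libraries. It was called there with the replicate number as a block (0.00972), by DESeq2 (0.00724) and limma (0.00446), with a filter at a mean of 5 CPM (0.0375), and without either of the 2 libraries named (0.00306 and 0.0257).

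Nupr1, a stress-induced chromatin protein, was at 1.6, 1.31 and 3.97 CPM in wildtype and 1.78, 0.806 and 0.988 in mutant libraries of group 1. The libraries of group 2 were at 1.8, 1.88 and 2.03 in wildtype, at 0.605, 1.43 and 0.774 in mutant and at 1.98, 2.19 and 1.32 in low-yield libraries. Only the mutant of group 2 lay wholly below its wildtype, and limma called Nupr1 there (adjusted p 0.0369) but edgeR did not (0.121). The log2 fold change over both groups was -1.01 (SE 0.32, edgeR adjusted p 0.0308). The call was lost in 7 of 12 fits that left out 1 library (0.0502 to 0.141), those without wildtype replicate 3, mutant replicates 2 and 3 of group 1, wildtype replicates 2 and 3 and mutant replicates 1 and 3 of group 2, and by limma (0.0515). Trib3, a pseudokinase that restrains ATF4, had log2 fold changes of -0.90, -0.74 and -0.96 that did not pass (0.366, 0.293 and 0.117). Without mutant replicate 2 of group 2 (6.49 CPM against 2.55 and 1.81), Trib3 was called in both kinds of mutant (0.0256 and 0.0316). Over both groups it was called without that library or wildtype replicate 1 of group 1 (0.0475 and 0.0442), with the replicate number as a block (0.0332) and by limma (0.0461). Limma also called it in both kinds of group 2 mutant (0.0097 and 0.0165).

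**Figure D4:**
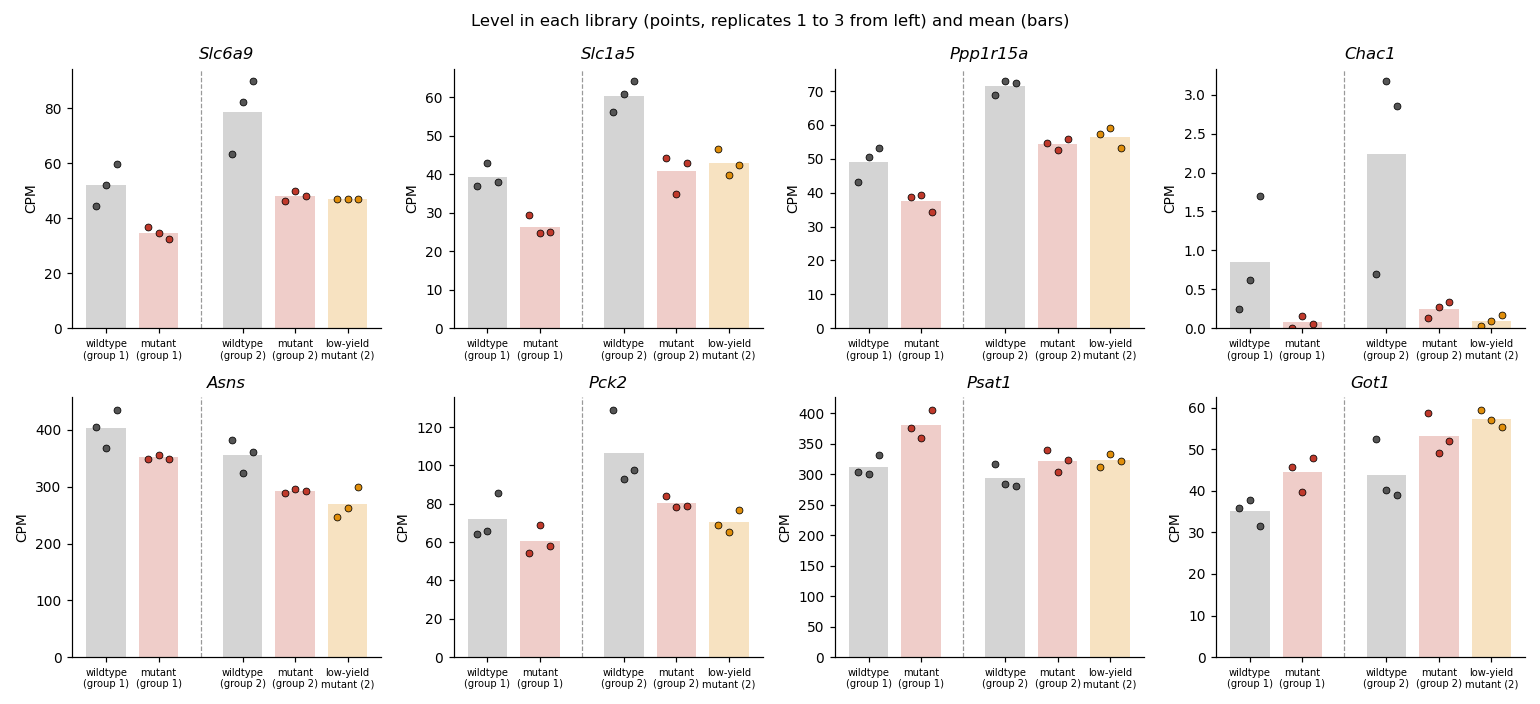
CPM (vertical axes, starting at 0) of 8 of the genes in each library (points, replicates 1 to 3 from left) and group means (bars), with a dashed line between the groups of mice, across which levels are not comparable. Mutant libraries lie below wildtype ones without overlap for Slc6a9, Slc1a5, Ppp1r15a, Chac1 and Asns in both groups of mice, and above them for Psat1 in group 1 only.

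In serine and one-carbon metabolism, 1 of 6 tested enzymes was called in group 1 (12.6% of all genes) and 0 of 7 in either mutant of group 2 (6.27% and 12.54% of all genes) by edgeR. In group 2, 0 and 1 had an unadjusted p under 0.05. There DESeq2 called 0, and limma called 0 and 1, the latter Psph in the low-yield mutant (0.0302). Serine is made from a glycolytic intermediate by Phgdh, Psat1 and Psph, and Shmt2, Mthfd2 and Mthfd1l carry its carbon through the mitochondrial folate pathway. Psat1, the aminotransferase of the second step, was at 304, 300 and 332 CPM in wildtype and 376, 358 and 405 in mutant libraries of group 1. Its lowest mutant library was above its highest wildtype library there. In group 2 the libraries overlapped, with 316, 284 and 280 in wildtype, at 339, 304 and 323 in mutant and at 312, 334 and 322 in low-yield libraries. In group 1 its log2 fold change was 0.28 (SE 0.07, edgeR adjusted p 0.0172), 0.13 and 0.14 in group 2 (0.367 and 0.291) and 0.21 over both groups (SE 0.05, 0.00969). Without wildtype replicate 1 or 2 or mutant replicate 3 the group 1 value was 0.0581, 0.0874 and 0.0977.

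Phgdh, the first and committed enzyme, was at 212, 212 and 213 CPM in wildtype and 231, 240 and 258 in mutant libraries of group 1, which do not overlap. Its log2 fold change was 0.20 (SE 0.06, edgeR adjusted p 0.0518), just above the threshold. It was called by DESeq2 (0.00693) and limma (0.034), and by edgeR under 3 other settings. These were a filter at a mean of 5 CPM (0.0232), the replicate number as a block (0.0361) and DESeq2's size factors (0.0459). In group 2 wildtype replicate 1 was at 354 CPM, above every mutant library (235 to 310), and replicates 2 and 3 were at 239 and 215. The log2 fold change there was 0.02 in the mutant and 0.06 in its low-yield counterpart. Over both groups Phgdh was called only in the fit without that wildtype replicate 1 among those that left out 1 library (0.0179, from 0.537 with it). In group 1 it was called without mutant replicate 1 (0.0355). Phgdh has many processed copies, of which Gm7901 (named after its values were seen; 98.7% identity over 1597 bases) held 5798 counts against 155374. Shmt2, the most abundant of these enzymes per kb, was at 413 to 450 CPM in wildtype and 434 to 488 in mutant libraries of group 1 and at 602 to 697 in all libraries of group 2. Its log2 fold changes of 0.12, 0.08 and 0.07 did not pass, with 95% intervals of -0.03 to 0.26, -0.08 to 0.23 and -0.08 to 0.23. Over both groups limma called Shmt2 (0.0483). Mthfd2 was at 105 to 161 CPM and Mthfd1l at 210 to 334 in all libraries, and neither was called by edgeR with all libraries (Mthfd1l over both groups 0.104, and 0.0354 without wildtype replicate 3 of group 2). DESeq2 called Mthfd1l over both groups (0.0476). Psph ranged from 23.7 to 37.2 CPM, and its exons overlap Cct6a on the opposite strand over 452 bases.

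Among the other amino acid enzymes, those that fell and those that rose were both found. Asns, which makes asparagine from aspartate and is a standard ATF4 target, was at 406, 368 and 435 CPM in wildtype and 350, 356 and 350 in mutant libraries of group 1. In group 2 it was at 382, 324 and 361 in wildtype, at 289, 295 and 292 in mutant and at 248, 263 and 300 in low-yield libraries. The groups did not overlap in any of the comparisons with wildtype. Log2 fold changes were -0.20 (SE 0.07, edgeR adjusted p 0.0796), -0.28 (SE 0.09, 0.0671) and -0.40 (SE 0.09, 0.00764), and -0.24 over both groups (SE 0.05, 0.00323). With the replicate number as a block the group 1 value was called (0.0468). DESeq2 called Asns in group 1 and in the group 2 mutant (0.029 and 0.0288). The low-yield call was lost without low-yield replicate 1 or 2 (0.068 and 0.0508).

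Pck2, the mitochondrial enzyme that makes phosphoenolpyruvate, was at 64.2, 66 and 85.7 CPM in wildtype and 54.6, 69 and 58.2 in mutant libraries of group 1, which overlap. In group 2 the levels were at 129, 92.9 and 97.4 in wildtype, at 84.1, 78.3 and 78.7 in mutant and at 68.8, 65.4 and 77 in low-yield libraries, without overlap. Log2 fold changes were -0.25 (SE 0.13, edgeR adjusted p 0.262), -0.40 (SE 0.11, 0.0468) and -0.60 (SE 0.11, 0.00318), and -0.32 over both groups (SE 0.09, 0.0129). The low-yield call held in every fit that left out 1 library, whereas the call in the other mutant was lost in 7 of 9 such fits (all but wildtype replicate 2 and low-yield replicate 3; 0.0552 to 0.159).

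Cth, which makes cysteine from cystathionine, was at 6.64, 5.26 and 5.19 CPM in wildtype, at 3.83, 3.51 and 3.41 in mutant and at 2.94, 4.38 and 3.07 in low-yield libraries of group 2. Both kinds of mutant were below wildtype without overlap, by log2 fold changes of -0.66 (SE 0.23, edgeR adjusted p 0.0999) and -0.71 (SE 0.22, 0.0486). In group 1 the change was -0.30 (0.349), and over both groups -0.43 (SE 0.14, 0.0329). These calls were near the threshold: the low-yield call was lost in 8 of 9 fits that left out 1 library (all but low-yield replicate 2; 0.053 to 0.192) and that over both groups in 9 of 12 (all but wildtype replicates 1 and 2 and mutant replicate 2 of group 1; 0.0541 to 0.118). Gpt2, the mitochondrial alanine aminotransferase, was also below wildtype in group 2 without overlap (5.21 to 9.46 CPM against 3.56 to 5.1 and 3.69 to 4.64), with log2 fold changes of -0.73 and -0.73 that did not pass (0.0993 and 0.0647). The low-yield value was called by DESeq2 (0.0383), with the replicate number as a block (0.0417) and without wildtype replicate 3 (0.0356). The value over both groups (0.0775) was called without mutant replicate 2 of group 1 (0.0336).

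Got1, the cytosolic aspartate aminotransferase, was higher in mutants. It was at 36, 37.9 and 31.4 CPM in wildtype and 45.8, 39.8 and 47.9 in mutant libraries of group 1. Its group 2 values were at 52.5, 40.2 and 38.9 in wildtype, at 58.7, 49.2 and 51.9 in mutant and at 59.5, 57.1 and 55.3 in low-yield libraries. Wildtype replicate 1 of group 2 lay within the range of the mutant libraries but below all low-yield ones, and in group 1 wildtype and mutant libraries did not overlap. The log2 fold changes were 0.34 (SE 0.10, edgeR adjusted p 0.0384), 0.28 (SE 0.11, 0.167) and 0.39 (SE 0.11, 0.0371), and 0.32 over both groups (SE 0.08, 0.0104), a level 1.24 times that of wildtype. The call over both groups held in all 12 fits that left out 1 library. In group 1 it was lost in 5 of 6 (all but mutant replicate 2; 0.066 to 0.177), and in the low-yield mutant in 6 of 9 (all but wildtype replicate 1 and mutant replicates 1 and 2; 0.0529 to 0.155). In the other mutant of group 2, limma called Got1 (0.0218), as did edgeR without wildtype replicate 1 (0.0144). The proline enzymes Aldh18a1 (225 to 366 CPM) and Pycr1 (3.89 to 9.11 CPM) were not called.

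Among the transporters, Slc6a9 and Slc1a5 fell in every mutant group. Slc6a9 (GlyT1), the plasma membrane importer of glycine, was at 44.4, 51.9 and 59.5 CPM in wildtype and 36.8, 34.7 and 32.4 in mutant libraries of group 1. The libraries of group 2 were at 63.5, 82.2 and 89.8 in wildtype, at 46.2, 50 and 47.9 in mutant and at 46.8, 46.9 and 47.1 in low-yield libraries. All mutant libraries were below all wildtype libraries of their group of mice, and the mutant values lay close together. Log2 fold changes were -0.59 (SE 0.11, edgeR adjusted p 0.00429), -0.71 (SE 0.11, 0.00202) and -0.74 (SE 0.11, 0.000609), and -0.65 over both groups (SE 0.08, 1.8e-05), a level of 0.639 of wildtype. The erythroid sums were below wildtype in the same libraries. Within groups, Slc6a9 had the order of those sums among wildtype libraries of both groups of mice and mutant libraries of group 1, but not among either kind of mutant library of group 2. The exons of Slc6a9 (chromosome 4, 117834506 to 117875198) overlap Ccdc24 on the opposite strand over 1429 bases. Ccdc24 held 1573 counts in all libraries against 32029 for Slc6a9.

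Slc1a5 (ASCT2), which brings in glutamine and small neutral amino acids, was at 36.9, 43.1 and 38.1 CPM in wildtype and 29.3, 24.7 and 25.1 in mutant libraries of group 1. In group 2 it was at 56.2, 60.8 and 64.3 in wildtype, at 44.3, 34.9 and 43.1 in mutant and at 46.6, 39.9 and 42.5 in low-yield libraries. Wildtype and mutant libraries did not overlap within either group of mice. The log2 fold changes were -0.58 (SE 0.10, edgeR adjusted p 0.00312), -0.57 (SE 0.11, 0.00569) and -0.49 (SE 0.11, 0.0068), and -0.57 over both groups (SE 0.08, 2.67e-05). For both Slc6a9 and Slc1a5, each of these calls held in every alternative run. By the interaction test a difference in change between the groups of mice was not shown for either: it was -0.11 for Slc6a9 (95% interval -0.47 to 0.25) and 0.02 for Slc1a5 (-0.31 to 0.36), with edgeR adjusted p of 1.

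Slc7a11 (xCT), which imports cystine in exchange for glutamate, was at 2.62, 2.2 and 3.14 CPM in wildtype, at 0.571, 1.12 and 0.284 in mutant and at 1.73, 0.426 and 1.05 in low-yield libraries of group 2. No mutant library reached wildtype there, whereas in group 1 the libraries overlapped (1.31, 1 and 1.85 against 0.405, 2.22 and 0.85). The log2 fold changes in group 2 were -2.14 (SE 0.48, edgeR adjusted p 0.0158) and -1.34 (SE 0.41, 0.0441), with -0.28 in group 1 (0.775) and -1.03 over both groups (0.079). The mutant call was lost without wildtype replicate 3 or mutant replicate 1 or 3 of group 2 (0.0606 to 0.11). The low-yield call was lost in 7 of 9 fits that left out 1 library (all but mutant replicate 2 and low-yield replicate 1; 0.0501 to 0.192), by DESeq2 (0.0812) and by limma (0.0561). Without mutant replicate 2 of group 1, Slc7a11 was called over both groups (0.00168), as it was by limma with all libraries (0.0213). An annotated Slc7a11 transcript shares 585 bases at 92.5% identity with Tuba1b (a tubulin gene, named after its values were seen), which held 936218 counts in all libraries against 870 for Slc7a11, so the division of reads between them is uncertain.

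The other transporters were not called in any comparison by edgeR's test as described, and Slc7a1 was called under some alternatives. Slc3a2, the heavy chain that partners Slc7a11 and Slc7a5, was at 147 to 215 CPM in all libraries, and Slc7a5 (LAT1), a carrier of large neutral amino acids, at 286 to 316 in group 1 and 442 to 545 in group 2. The 95% intervals of their log2 fold changes over both groups were -0.18 to 0.12 and -0.16 to 0.08. Slc38a2, a carrier of small neutral amino acids, was at 134 to 222 CPM in all libraries. Slc7a1, the carrier of arginine and lysine, was at 167 to 180 CPM in group 1. In group 2 the levels were at 357, 343 and 315 in wildtype, at 298, 283 and 284 in mutant and at 315, 297 and 297 in low-yield libraries, with log2 fold changes of -0.23 and -0.16 that did not pass (edgeR adjusted p 0.0813 and 0.181). For the mutant, DESeq2 (0.0273), limma (0.0267) and edgeR with a filter at a mean of 5 CPM (0.0499) called it.

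A further 6 lists of 119 genes from the same pathways were examined over both groups of mice, where 27 of 115 tested genes were called (16 higher, 11 lower; 23.5%) with a median log2 fold change of 0.01, against 19.6% of all genes called and a median of -0.001. Like the members, these lists were chosen with earlier results of these data known, and their shares are descriptive. In the unfolded protein response of the endoplasmic reticulum, 6 of 18 chaperones and sensors were called (33.3%, against 19.6% of all genes), all higher, and the median was 0.15. In single comparisons 3 of 18 were called in group 1 (16.7%, against 12.6%) and 1 of 18 in each group 2 mutant (5.56%, against 6.27% and 12.54%). Hyou1, a chaperone of that compartment, was at 139 to 151 CPM in wildtype and 184 to 207 in mutant libraries of group 1 and at 231 to 299 against 306 to 377 and 331 to 389 in group 2. It rose by 0.45 on the log2 scale (SE 0.07, edgeR adjusted p 0.000114). Calr (0.25, adjusted p 0.0024), Hsp90b1 (0.21, 0.00771) and Sdf2l1 (0.38, 0.0104), also chaperones of that compartment, rose too. Of the eIF2 arm, 3 of 16 were called (18.8%, near the 19.6% of all genes), 1 higher and 2 lower: Ppp1r15b and Eif2ak1, given above, and Eif2b1 (0.20, 0.0465), a subunit of the factor that recharges eIF2. The Eif2b1 call was lost in 8 of 12 fits that left out 1 library (0.0671 to 0.122).

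**Figure D5:**
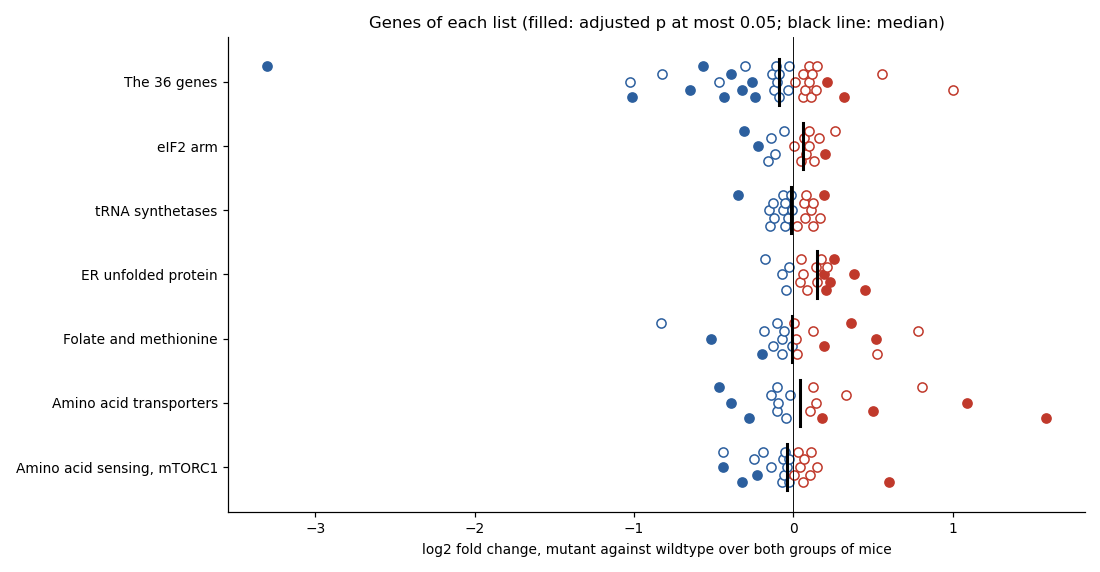
Log2 fold change over both groups of mice (horizontal axis) of the tested genes of the 36 and of 6 further lists, with filled points for an adjusted p of at most 0.05 and a black line at each list's median. The list of the endoplasmic reticulum has 6 filled points above 0 and none below, and the 36 genes have 2 above and 9 below.

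Of 21 genes that charge or export tRNA, 2 were called (9.52%, against 19.6% of all genes). Cars, which charges tRNA with cysteine, was at 111, 114 and 132 CPM in wildtype and 95.8, 104 and 95.8 in mutant libraries of group 1. It was at 122, 115 and 117 in wildtype, at 81.7, 94.1 and 87.3 in mutant and at 86.3, 91.5 and 89.5 in low-yield libraries of group 2. Its mutant libraries were below wildtype without overlap, with a log2 fold change of -0.35 over both groups (SE 0.06, edgeR adjusted p 0.000201). Kars, which charges tRNA with lysine, rose by 0.19 (SE 0.06, 0.0215), a call lost in 5 of 12 fits that left out 1 library (0.05 to 0.0857).

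Of 19 tested genes of folate and methionine metabolism, 5 were called (3 higher, 2 lower; 26.3%, against 19.6% of all genes, of which 9.8% were higher and 9.8% lower). Shmt1, the cytosolic counterpart of Shmt2, was at 59.1 to 65.1 CPM in wildtype and 84 to 106 in mutant libraries of group 1. Its group 2 values were at 36.3 to 49.2 in wildtype, 47.6 to 64 in mutant and 65.1 to 80.4 in low-yield libraries. It rose by 0.52 on the log2 scale (SE 0.08, edgeR adjusted p 0.000177). Gcsh of the glycine cleavage system rose by 0.36 (SE 0.07, 0.00124), and the methionine synthase Mtr fell, with -0.20 (SE 0.05, 0.0135).

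Among 18 further amino acid transporters, 7 were called (4 higher, 3 lower; 38.9%, against 19.6% of all genes). Slc25a38, the mitochondrial glycine carrier needed for heme synthesis, was at 116, 122 and 129 CPM in wildtype and 89.9, 91.4 and 87.8 in mutant libraries of group 1. The libraries of group 2 were at 122, 148 and 136 in wildtype, at 104, 100 and 118 in mutant and at 87.2, 77.2 and 113 in low-yield libraries. It was below wildtype without overlap in each mutant group, and its log2 fold change was -0.39 over both groups (SE 0.06, edgeR adjusted p 0.000122). By edgeR the adjusted p was 0.00118 in group 1, 0.0104 for the low-yield mutant and 0.136, not called, for the other mutant of group 2. The low-yield call was lost without wildtype replicate 2 or low-yield replicate 1 or 2 (0.0574 to 0.0612). Slc7a7, which exchanges cationic for neutral amino acids, rose by 1.09 (SE 0.19, 0.000398), at 1.88 to 2.09 CPM in wildtype and 4.33 to 4.94 in mutant libraries of group 1 and 1.3 to 2.53 against 2.62 to 5.51 and 3.45 to 5.3 in group 2. Slc7a8, a carrier of neutral amino acids, rose by 1.59 (SE 0.37, 0.00443) at low levels, at most 1.39 CPM in any wildtype library. The proton-coupled carrier Slc36a1 fell, with -0.47 (SE 0.12, 0.00963).

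Of 23 genes of amino acid sensing and mTORC1, 4 were called (1 higher, 3 lower; 17.4%, near the 19.6% of all genes). Nprl3, a subunit of the complex that restrains mTORC1 when amino acids are short, was at 28.1 to 28.8 CPM in wildtype and 21 to 24.5 in mutant libraries of group 1, and at 30 to 31.7 against 19.3 to 24.2 and 22.5 to 26.8 in group 2. Its log2 fold change was -0.44 (SE 0.08, edgeR adjusted p 0.000462). Sesn1, of the leucine-sensing sestrin family, fell (-0.33, 0.00989), as did the lysosomal anchor Lamtor1 (-0.23, 0.0139). The arginine sensor Castor1 rose by 0.60 (SE 0.19, 0.0357), a call lost in 8 of 12 fits that left out 1 library (0.0507 to 0.0978).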

How the data were processed

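RNA from 15 libraries was sequenced as 151 bp read pairs. Per the submitters' processing notes, tools included cutadapt 2.3, STAR 2.7.8a and RSEM 1.3.3, with build GRCm38. The authors deposited expected counts per gene, which were whole numbers. Annotation release and use of strand are not given in the sources used here. Reporter rows (4 and 1 counts) were left out.

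Genes were filtered (filterByExpr, minimum count 10), scaled by TMM and tested two-sided with edgeR 4.0.16 (R 4.3.3), with Benjamini-Hochberg adjustment over all tested genes. The code was first run on simulated data, with less spread than these libraries and changes in well-counted genes only. That run does not cover members with few reads. Group 1 and group 2 had separate fits. All libraries of group 2 were fitted together with a shared estimate of the spread. Each comparison of a group 2 mutant with wildtype therefore also depends on the libraries of the other mutant. A fit of 12 libraries with an additive term for the mouse group gave values over both groups. DESeq2 1.42.0 and limma 3.58.1 were alternatives. The limma runs used voom with quality weights, which give less weight to libraries that deviate from their group. All 36 members are named, with up to 4 genes of smallest p among those called in each further list. An item that this rule selects is not reported here. Members and lists were chosen with earlier results of these data known. The edgeR fits above had no term for the replicate number, which served as a block only in an alternative. In group 1, same-numbered libraries had correlations of deviations of 0.559, 0.241 and 0.225, but wildtype replicate 3 and mutant replicate 2 had 0.316. No pairing is stated in the sources used here, so the pairs of the block are not established. Exon lengths and overlaps came from GENCODE M21.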

Additional observations from a re-analysis of the deposited data

How the results depend on the processing

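The 35 called values of the 36 genes gave 580 values under the alternatives. Of these, 482 kept direction and call, 98 lost the call and 0 reversed. A further 25 values not called by edgeR's test as described were called under some alternative, with or without a library left out. For the mutant of group 2, DESeq2 called 11 members and limma 13 instead of 7 (1453 and 1928 of all genes instead of 942). Limma called 3348 of all genes instead of 1884 in the low-yield mutant. With only the 6 compared libraries in the edgeR fit, 6 members were called in the mutant of group 2 and 8 in the low-yield mutant. All-gene counts were then 774 and 1618. The mutant lost Pck2 (adjusted p 0.0701). The low-yield mutant lost Got1 (0.0569), Cth (0.076) and Slc7a11 (0.0524), while Trib3 was called there (0.0436). Leaving out 1 library gave 2 to 6 members in group 1, 4 to 9 in the group 2 mutant, 5 to 10 in the low-yield mutant, 9 to 12 over both groups, and 0 in the direct comparison of the mutants and in the interaction. With 1 library left out, all-gene counts fell as low as 753 in group 1, 425 in the group 2 mutant and 900 in the low-yield mutant.

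With the replicate number as a block, 9 members were called in group 1, where Phgdh (0.0361) and Asns (0.0468) were added. In group 2 the correlations of same-numbered libraries were 0.315, 0.224 and 0.0156 for wildtype and mutant. They were between -0.103 and 0.133 for pairs with the low-yield mutant. Whether the numbers pair libraries is not stated for either group of mice, and the block over both groups uses the numbers of both. The block gave 8 members in the mutant, 11 in the low-yield mutant, 13 over both groups and 0 in the remaining comparisons. The quasi-likelihood fit in its older mode, chosen after seeing the data, called 6, 7, 8 and 12 members in the comparisons with wildtype. Chac1 rests on 0 to 128 counts per library, and the SE of its log2 fold change was 0.56 to 0.98. The part of depth in these calls was not tested.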
